A study of Homo sapiens with 12 samples.

Results

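Among 12 RNA sequencing libraries of 2 human pancreatic carcinoma lines, 5 libraries of PANC-1 fell into 2 sets that did not follow the siRNA they had received. The first set, called the BIRC3-high set here, was control siRNA replicate 1 and RBM3 siRNA replicate 2. The second set, the other set, was control siRNA replicates 2 and 4 and RBM3 siRNA replicate 1. The sets were chosen from values of these same libraries, because the first pair had high BIRC3, HBEGF and HAS3 and low TMPRSS2 and ELF3. Differences between the sets are therefore a description without a test. The labels do not name a culture state, a density or a passage, so the sets are called by their leading genes.

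The study asked which genes depend on RBM3, a cold-inducible RNA-binding protein, in PANC-1 and MIA PaCa-2, and its title singles out PRR11. Cells of both lines received a negative control siRNA or a pair of anti-RBM3 siRNAs with lipofectamine, at 25 nM in total. Transfection came after 72 h of culture and took 4.5 h in medium without serum, and the cells recovered overnight in full medium before harvest. There were 4 groups of 3 libraries, and libraries were read from both ends at 75 bp. All 5 libraries described here are of PANC-1, an established ductal carcinoma line, and all had a transfection: 3 with control siRNA and 2 with RBM3 siRNA. RPMI1640 and DMEM are both named as media, not assigned to a line, and the labels call the material total RNA in one field and cytoplasmic RNA in another. They do not say that replicates were separate cultures. P-values for siRNA thus measure only the spread between these libraries, which may be technical.

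The genes that set the libraries apart belong in part to 2 well-known signalling routes. Ligands of the EGF receptor, shed from the cell surface, activate RAS and the kinase ERK, which induces early transcription factors and its own inhibitors, such as the DUSP phosphatases and the Sprouty proteins. NF-kB is a family of transcription factors held back by inhibitor proteins, and its targets include chemokines, survival proteins and those same inhibitors. PANC-1 has a mixed epithelial and mesenchymal character.

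Total counts were 23993638 and 33341322 in the BIRC3-high set and between 14217185 and 32564458 in the other set. Levels are given in CPM, the count of a gene scaled to the library's total, after TMM scaling, which corrects for library composition. Differences are between the means of log2(CPM + 1), which understates the change of low genes, and "higher" or "lower" means in the BIRC3-high set against the other set. The epithelial keratin genes KRT8, KRT18 and KRT19 were at or above 758 CPM in all 5 libraries. The leukocyte genes NKG7 and TYROBP and the endothelial gene PECAM1 had no count in any of them. The fibroblast collagen COL1A2, at 899 CPM or more in MIA PaCa-2, was at or below 1.67 CPM. Of 10 fibroblast, 10 leukocyte and 8 endothelial markers, 5, 7 and 7 were under 1 CPM in all 5 libraries. The summed fibroblast markers were at 239 and 235 CPM against 133 to 152 CPM, nearly all of it COL1A1, at 232 and 227 CPM against 119, 137 and 142 CPM. The summed leukocyte markers were at 6.75 CPM in both libraries of the BIRC3-high set against 3.40 to 6.03 CPM. The leukocyte marker ITGAM was higher (log2 difference 1.09) and the fibroblast marker COL3A1 was lower (log2 difference -1.57). Both passed 2-fold without overlap between the sets. The part of these markers in the differences was not tested. In bulk RNA, fewer cells of a kind and less RNA per cell cannot be told apart.

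A gene was called apart when its 2 means differed at least 2-fold and no library of one set overlapped the other set. Of 16774 genes, 430 were higher (2.56%) and 336 were lower (2.00%). Without a limit on size, 4409 genes (26.3%) lay above in both libraries of the BIRC3-high set, and 4776 (28.5%) lay below. Because the same libraries chose the sets, these counts carry no evidence of their own. Pairs of libraries from the same set had between 11 and 108 genes at least 2-fold apart. Control replicate 1 and siRNA replicate 2, which had different siRNAs, had 27 such genes, while pairs across the sets had between 790 and 1149. The first principal component held 72.06% of the variance of the 5 libraries and put the BIRC3-high set on one side and the other set on the other.

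**Figure D1:**
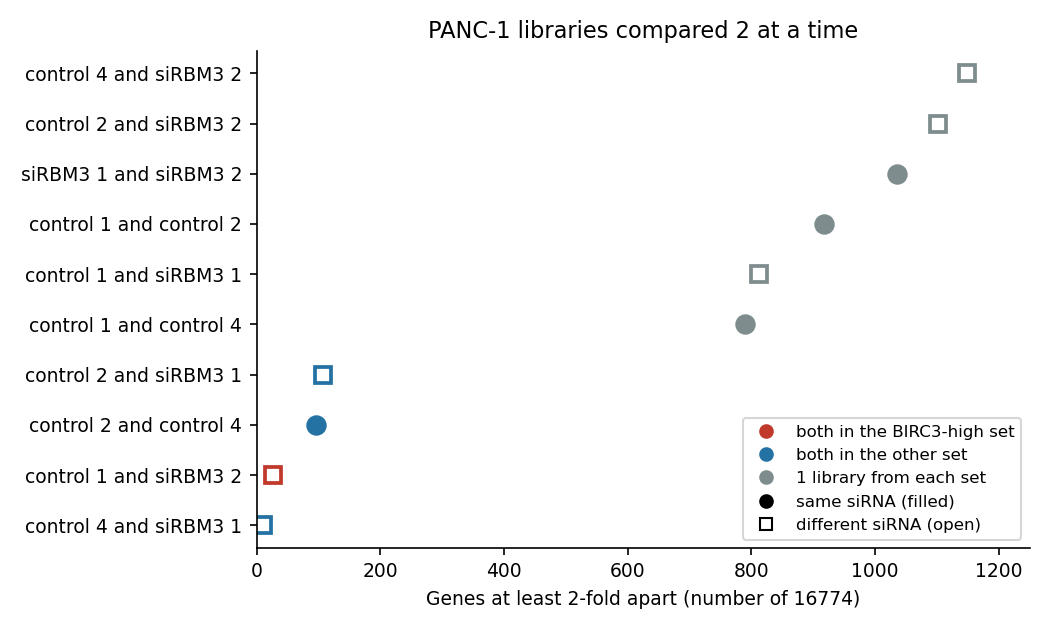
Number of genes at least 2-fold apart (x axis) for each pair of the 5 PANC-1 libraries (y axis), of 16774 genes; colour gives the sets of the 2 libraries, filled circles the same siRNA and open squares different siRNAs. The 4 pairs within a set had at most 108 such genes and the 6 pairs across the sets at least 790, whichever siRNA the libraries had.

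Promoters of genes at the centre of the pattern are shown first, because the NF-kB genes were the list with the largest median difference among lists with at least 8 members tested. Sequences are the strand of the gene, 5′ to 3′, from RefSeq on GRCh38.p14. Each line is 90 bases upstream of the annotated start, and capitals mark the motif found. The NF-kB motif searched was GGG, any 2 bases, then TTTCC, on both strands. In the first 4 windows it lies on the opposite strand and so reads as GGAAA, any 2 bases, CCC. The AP-1 motif, bound by FOS and JUN proteins, was TGANTCA, and it is shown for CXCL8.
BIRC3, chr11:102317250-102317339, plus strand: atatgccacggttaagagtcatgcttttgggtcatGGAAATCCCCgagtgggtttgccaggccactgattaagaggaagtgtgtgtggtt
TNFAIP3, chr6:137867157-137867246, plus strand: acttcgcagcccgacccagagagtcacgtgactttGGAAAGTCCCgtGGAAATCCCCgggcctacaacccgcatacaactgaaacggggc
NFKBIA, chr14:35404776-35404865, minus strand: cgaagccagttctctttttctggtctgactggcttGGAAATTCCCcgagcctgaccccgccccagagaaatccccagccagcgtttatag
ELF3, chr1:202010464-202010553, plus strand: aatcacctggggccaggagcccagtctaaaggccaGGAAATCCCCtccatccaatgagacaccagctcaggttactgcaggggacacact
CXCL8, chr4:73740397-73740486, plus strand: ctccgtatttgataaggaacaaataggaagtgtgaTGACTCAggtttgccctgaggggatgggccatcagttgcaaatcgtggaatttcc

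The first base of the match lay at -199 from the start in BIRC3, -67 in TNFAIP3, where 2 matches stand 2 bases apart, -81 in NFKBIA, -88 in ELF3 and -137 in CXCL8. BIRC3, TNFAIP3, NFKBIA and CXCL8 were higher in the BIRC3-high set, and ELF3 was lower. ELF3 is not in the NF-kB lists and was picked as a gene of the rule, so it does not stand for genes called lower. The NF-kB motif was in 2 of 248 promoters of genes called lower, ELF3 included, and in 14 of 312 of genes called higher. It was in 2.17% of promoters of all genes tested.

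The 6 genes of the rule differed on the log2(CPM + 1) scale by between 4.57-fold, in BIRC3, and 8.21-fold, in CLDN1. BIRC3 (ENSG00000023445), an inhibitor of apoptosis and an NF-kB target, was at 558 CPM in control replicate 1 and 635 CPM in siRNA replicate 2. In control replicates 2 and 4 and siRNA replicate 1 it was at 144, 109 and 139 CPM, a log2 difference of 2.19. The heparin-binding EGF-like growth factor HBEGF (ENSG00000113070) was at 71.5 and 71.0 CPM against 6.72, 8.65 and 11.9 CPM (log2 difference 2.87). HAS3 (ENSG00000103044), a hyaluronan synthase, stood at 181 and 203 CPM against 21.1, 21.6 and 26.9 CPM, a log2 difference of 3.00. The rule used these 3 genes to form the sets, so the absence of overlap follows from the choice. HBEGF was lowest in both control libraries of the other set.

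CLDN1 (ENSG00000163347), a tight junction protein, was at 128 and 166 CPM against 9.15, 18.3 and 28.1 CPM (log2 difference 3.04). It varied more within the other set than HAS3 did. TMPRSS2 (ENSG00000184012), a membrane serine protease of epithelia, ran the other way, at 1.75 and 2.42 CPM against 19.2, 21.2 and 23.2 CPM (log2 difference -2.85). The epithelial transcription factor ELF3 (ENSG00000163435) was at 0.983 and 0.526 CPM against 8.25, 7.96 and 10.1 CPM (log2 difference -2.48). In MIA PaCa-2 these genes were between 0.285 and 1.17 CPM (TMPRSS2), 0.338 and 1.11 CPM (ELF3) and 15 and 23.1 CPM (BIRC3).

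**Figure D2:**
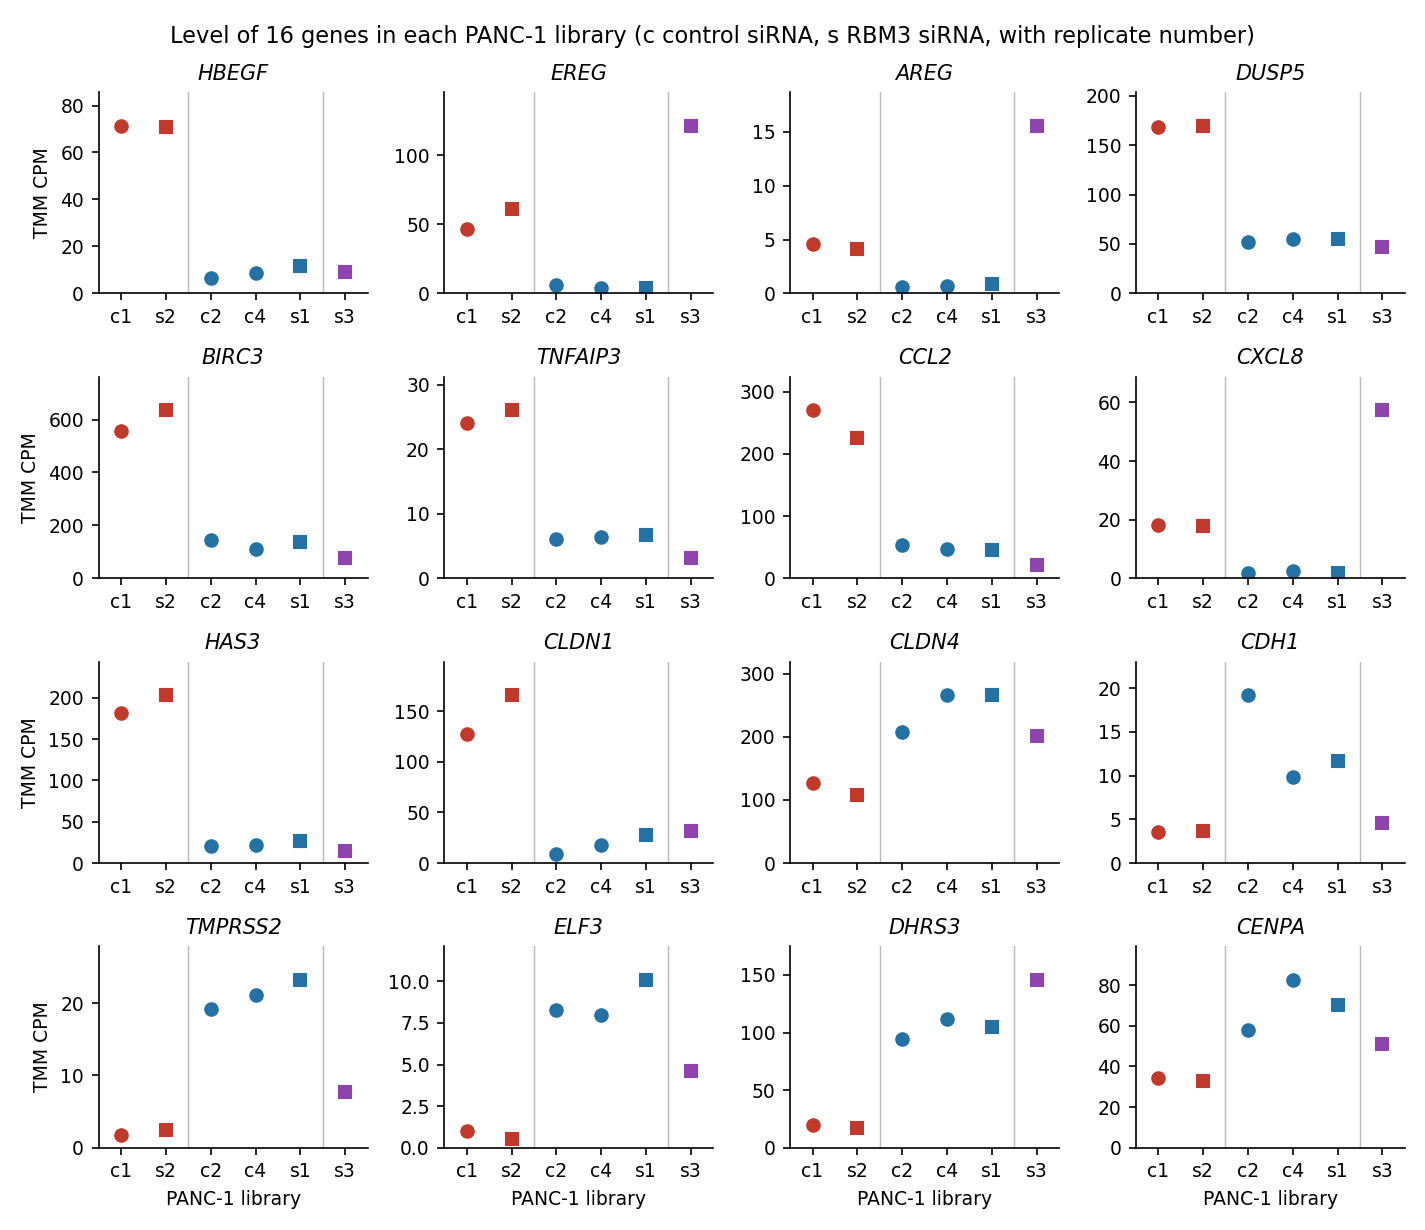
TMM CPM (y axis, linear from 0) of 16 genes in each PANC-1 library (x axis): control 1 and siRNA 2 (red, the BIRC3-high set), control 2, control 4 and siRNA 1 (blue, the other set) and siRNA 3 (purple); circles are control siRNA and squares RBM3 siRNA. Each gene's red and blue points do not overlap, and EREG, AREG and CXCL8 are highest in siRNA 3, at 121, 15.6 and 57.3 CPM.

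Ligands of the EGF receptor family held the gene with the largest log2 difference of all 16774, EREG (epiregulin). It was at 46.3 and 61.1 CPM against 6.17, 3.68 and 3.70 CPM, a log2 difference of 3.33. AREG, the neighbouring gene for amphiregulin, was at 4.57 and 4.12 CPM against 0.554, 0.736 and 0.878 CPM. AREG has a near-identical copy in the build of the counts, so its count is uncertain. NRG1, a ligand of ERBB3 and ERBB4, was at 49.9 and 66.3 CPM against 21.1, 21.1 and 24.6 CPM. Of the 6 ligands tested, these 3 and HBEGF of the rule were called higher and none lower, beside 2.56% and 2.00% of all genes. TGFA was below in both libraries, at 0.556 and 0.836 CPM against 1.79 to 2.36 CPM, and NRG2 at 23.7 and 24.8 CPM against 31.8 to 33.6 CPM. The family thus did not move as a block: 4 ligands lay above and 2 below in every library, against 26.3% and 28.5% of all genes.

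The receptors differed less. EGFR was at 348 and 500 CPM against 268, 236 and 265 CPM, a log2 difference of 0.70 that did not reach 2-fold. ERBB2, the receptor without a ligand of its own, was lower, at 21.8 and 21.2 CPM against 67.4, 46.6 and 50 CPM (log2 difference -1.29). ADAM10, a sheddase, overlapped between the sets at 139 and 169 CPM against 142 to 171 CPM. ADAM17, the main sheddase of these ligands, was at 99.1 and 116 CPM against 74.9 to 89.5 CPM.

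Of 20 feedback and output genes of ERK tested, 7 were called higher (2.56% over all genes) and none lower (2.00%). Of the 20, 16 lay above without overlap against 26.3% of all genes. The nuclear ERK phosphatase DUSP5 was at 168 and 170 CPM against 52.4, 54.9 and 55.0 CPM. SPRY4 and SPRY2, inhibitors of receptor signalling, were at 286 and 367 CPM against 84.5 to 115 CPM, and at 132 and 135 CPM against 47.1 to 60.4 CPM. The cytokine genes LIF and IL11 had log2 differences of 1.76 and 1.60. CCND1, for cyclin D1, was at 634 and 672 CPM against 277 to 350 CPM, and MYC was at 209 and 208 CPM against 93.9 to 105 CPM. Not every ERK output followed: DUSP6, the cytoplasmic ERK phosphatase, overlapped at 127 and 131 CPM against 67.0 to 168 CPM, and ETV4, ETV5 and SPRY1 overlapped too. The median over the list was 0.72, against -0.02 over all genes.

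Immediate early genes, switched on within minutes of a stimulus, split by library in another way. Of 25 tested, 8 were called higher (2.56% over all genes), among them KLF4, at 29.2 and 34.0 CPM against 9.49, 7.04 and 5.36 CPM. JUN was at 576 and 556 CPM against 343, 265 and 247 CPM. FOS, its partner in AP-1, was at 338 and 348 CPM in the BIRC3-high set and at 349 CPM in control replicate 2, but at 134 and 101 CPM in control replicate 4 and siRNA replicate 1. EGR2, NR4A1 and DUSP2 were likewise highest in control replicate 2, at 18.0, 21.1 and 20.9 CPM. The list held 1 gene called lower (2.00% over all genes), BTG2, an antiproliferative gene and p53 target. BTG2 was at 1.11 and 1.33 CPM against 5.54, 2.81 and 4.66 CPM. Control replicate 2 therefore stood with the other set in HAS3 and HBEGF and with the BIRC3-high set in FOS.

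The NF-kB system differed at the level of its own parts. Of 13 subunits and inhibitors tested, 8 were called higher (2.56% over all genes), none was called lower, and 11 lay above without overlap (26.3%). TNFAIP3, the inhibitor A20, was at 24.1 and 26.1 CPM against 6.03, 6.40 and 6.69 CPM. NFKBIA, the inhibitor that holds NF-kB in the cytoplasm, was at 227 and 183 CPM against 57.0, 54.4 and 63.2 CPM. Among the subunits, NFKB1 was at 145 and 157 CPM against 40.5 to 47.9 CPM, and RELB at 81.4 and 73.0 CPM against 17.7 to 27.0 CPM. RELA, the main activating subunit, was at 206 and 194 CPM against 169 to 178 CPM, a log2 difference of only 0.19, and TNIP2 overlapped. The median over these 13 genes was 1.15.

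NF-kB targets were called higher in 13 of 24 tested (2.56% over all genes), BIRC3 of the rule included, and 21 lay above without overlap (26.3%). The chemokine gene CCL2 was at 270 and 226 CPM against 54.1, 46.4 and 44.7 CPM (log2 difference 2.33). CXCL8, for interleukin 8, was at 18.2 and 17.9 CPM against 1.94, 2.49 and 1.88 CPM (log2 difference 2.62). BCL2A1, a survival protein of the BCL2 family, was at 64.5 and 57.7 CPM against 7.97, 12.4 and 9.12 CPM. BIRC2, the neighbour and paralogue of BIRC3, was at 297 and 316 CPM against 137 to 165 CPM, so the pair of genes lay on the same side with BIRC3 further apart. ICAM1, an adhesion molecule for leukocytes, was at 496 and 448 CPM against 218 to 239 CPM. CXCL1 and CXCL2, which resemble each other in sequence, had log2 differences of 1.34 and 1.78. TNFAIP8 was the exception, at 9.23 and 7.34 CPM against 9.43 to 11.4 CPM. TNF itself stayed near the limit of detection, at 1.03 CPM or less in all 5 libraries, and the targets IL6, IL1A and IL1B did not pass the filter on low counts.

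**Figure D3:**
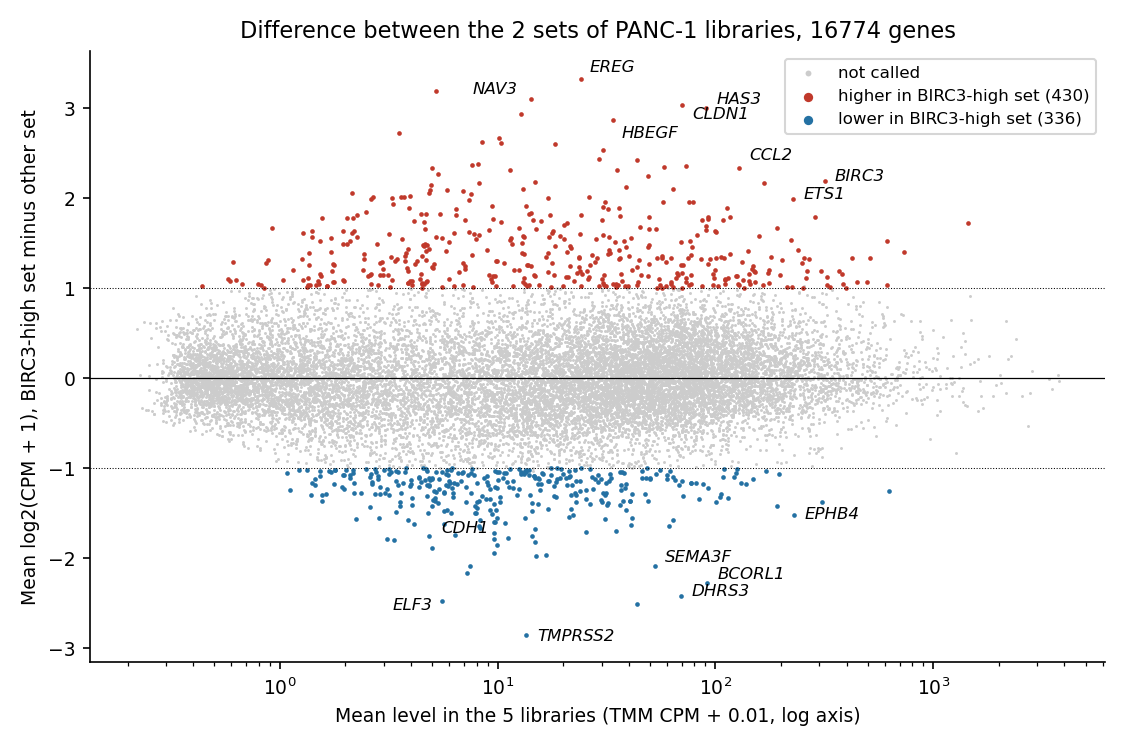
Difference of mean log2(CPM + 1), BIRC3-high set minus other set (y axis), against the mean level over the 5 libraries (x axis, log scale, CPM + 0.01) for 16774 genes; red and blue points are the 430 and 336 genes called apart, and dotted lines mark 2-fold. EREG at 3.33 and TMPRSS2 at -2.85 are the extremes.

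The rule for naming genes took the 12 per direction with the widest gap between the nearest libraries of the sets. Beside EREG, HAS3, HBEGF, CXCL8, CLDN1 and BCL2A1, it gave RRAD, ITGB8, NAV3, SYT5, OXTR and MIR22HG as higher. RRAD, a RAS-related GTPase, was at 13.4 and 11.2 CPM against 0.762, 0.276 and 0.363 CPM. The integrin subunit gene ITGB8 was at 21.8 and 34.1 CPM against 3.05, 2.21 and 2.91 CPM. OXTR, the oxytocin receptor, was at 33.4 and 42.3 CPM against 5.96, 4.74 and 5.42 CPM. MIR22HG, the host transcript of microRNA 22, showed the smallest scatter of these genes, at 69.0 and 68.2 CPM against 13.2, 12.8 and 12.9 CPM. NAV3, a microtubule-associated protein, and SYT5, a synaptotagmin, had log2 differences of 3.11 and 2.67.

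Lower by the same rule were TMPRSS2, DHRS3, CRMA, BCORL1, SEMA3F, CCM2L, PTPN6, C2CD4C, RCOR2, FZD2, THRA and HOXB13. DHRS3, a retinaldehyde reductase, was at 19.4 and 17.6 CPM against 94.7, 111 and 105 CPM (log2 difference -2.42). BCORL1, a transcriptional corepressor, was at 26.9 and 25.5 CPM against 182, 119 and 102 CPM (log2 difference -2.27). SEMA3F, a secreted semaphorin, was at 16.7 and 17.4 CPM against 84.7, 67.0 and 76.9 CPM (log2 difference -2.09). PTPN6, the tyrosine phosphatase SHP-1, was at 2.78 and 3.07 CPM against 14.8, 13.0 and 14.7 CPM. The thyroid hormone receptor gene THRA and the WNT receptor gene FZD2 had log2 differences of -1.82 and -1.97, and HOXB13 of -1.77.

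Hyaluronan genes showed that the difference in HAS3 was not one of the whole family. HAS2, the other synthase tested, overlapped at 15.04 and 21.1 CPM against 11.96 to 16.1 CPM. CEMIP2, a cell surface hyaluronidase, was at 60.3 and 76.5 CPM against 21.6 to 23.1 CPM. Of 8 genes tested, 2 were called higher (2.56% over all genes): CEMIP2, and HAS3, which was used to form the sets. CD44, the hyaluronan receptor, was at 1715 and 1786 CPM against 1416 to 1698 CPM, with no overlap and a log2 difference of 0.21.

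Claudins went in opposite directions within one list of 16 genes. CLDN1 was the single member called higher (2.56% over all genes), and 4 were called lower (2.00%). CLDN4 was lower, at 126 and 108 CPM against 208, 266 and 266 CPM, as was its neighbour CLDN3, at 6.41 and 6.29 CPM against 12.9, 16.8 and 19.9 CPM. The junction scaffold genes CGN and CGNL1, for cingulin and its relative, were also called lower. After removal of the trend with GC content CLDN3 alone of these 4 was still called, with CLDN4, CGN and CGNL1 at -0.97. The occludin gene OCLN lay above, at 112 and 129 CPM against 75.5 to 90.4 CPM, without reaching 2-fold, and TJP1 overlapped.

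Epithelial transcription factor and adhesion genes were mostly below. Of 11 epithelial transcription and splicing factors tested, 3 were called lower (2.00% over all genes) and 1 higher (2.56%). ELF3, 1 of the 3, was used to form the sets. Without overlap, 7 of the 11 lay below, against 28.5% of all genes. ESRP1, an epithelial splicing regulator, was at 0.256 and 1.15 CPM against 4.64, 4.60 and 4.79 CPM. CDX2, an intestinal homeobox factor, was the third called lower after ELF3 and ESRP1 but not after removal of the GC trend, and KLF5 was called higher, at 6.37 and 9.35 CPM against 1.15 to 2.01 CPM. Of 15 epithelial adhesion genes, 3 were called lower (2.00% over all genes) and none higher (2.56%). The 3 were DSP, for desmoplakin, and the cadherin genes CDH1 and CDH3. CDH1, for E-cadherin, was at 3.59 and 3.66 CPM against 19.2, 9.89 and 11.6 CPM. DSP was at 10.4 and 18.7 CPM against 58.0, 41.5 and 45.3 CPM. Keratin genes showed no call: KRT19 was at 952 and 758 CPM against 1265 to 1912 CPM. Among mesenchymal genes VIM, for vimentin, overlapped at 4047 and 3375 CPM against 3346 to 4266 CPM. Of the 16 tested, TNC and LOX were called higher (2.56% over all genes) and SPARC lower (2.00%). The pancreatic nuclear receptor NR5A2 was lower, at 2.56 and 4.12 CPM against 12.3 to 15.96 CPM, while SOX9, a duct regulator, was at 418 and 429 CPM against 224 to 254 CPM.

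Of 5 membrane serine proteases and inhibitors tested, TMPRSS2 was called lower (2.00% over all genes) and PRSS22 higher (2.56%). TMPRSS2 was used to form the sets. PRSS22 was at 66.3 and 60.4 CPM against 11.1, 23.4 and 20.4 CPM. PLAU, for urokinase, was at 1100 and 924 CPM against 318 to 377 CPM, and its receptor gene PLAUR at 18.6 and 18.3 CPM against 4.36 to 5.43 CPM. MMP14, a membrane matrix protease, was lower, at 13.2 and 12.2 CPM against 33.1 to 34.4 CPM. Of 15 TGF-beta targets, 4 were called higher (2.56% over all genes), PMEPA1, ID2 and ID3 among them, and SMAD6 was called lower (2.00%). Of 23 YAP and TEAD targets, 4 were called higher (2.56% over all genes) and none lower (2.00%), led by IGFBP3 and CCN2, with CCN2 at 532 and 462 CPM against 99.3 to 193 CPM. CCN1, a closely related target, overlapped at 968 and 827 CPM against 688 to 956 CPM.

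Stress and metabolic lists were mixed. Of 17 targets of NRF2, the regulator of the oxidative stress response, 6 were called higher (2.56% over all genes) and none lower (2.00%). They included both subunits of glutamate-cysteine ligase, with GCLC at 175 and 230 CPM against 51.8 to 55.4 CPM and GCLM at 146 and 188 CPM against 57.7 to 70.9 CPM. NQO1, a standard NRF2 target, overlapped at 252 and 243 CPM against 207 to 265 CPM. SLC7A11, the cystine transporter gene, was at 74.5 and 151 CPM against 11.5, 23.4 and 29.5 CPM; it varied over 2-fold within each set. Of 22 cholesterol synthesis genes 16 lay above without overlap (26.3% of all genes) but none reached 2-fold, with a median of 0.37. SQLE, for squalene epoxidase, was at 222 and 228 CPM against 117 to 132 CPM.

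Mitosis genes were lower by small steps. All 36 were tested, 34 lay below without overlap against 28.5% of all genes, 3 were called lower (2.00% over all genes), and the median was -0.58. CENPA, the centromeric histone, was at 34.5 and 32.8 CPM against 58.1, 82.5 and 70.1 CPM. The kinase gene BUB1 was at 104 CPM in both libraries of the BIRC3-high set against 190, 211 and 245 CPM. ANLN, for anillin, was the member with a difference above 0, at 470 and 540 CPM against 419 to 498 CPM. DNA replication and G1/S genes had a median of -0.13 with 15 of 32 below without overlap (28.5% of all genes). PRR11, which the study chose on these samples, was at 15.9 and 19.6 CPM against 21.6, 20.2 and 29.1 CPM. Of 26 interferon response genes 14 lay below (28.5% of all genes) and 4 above (26.3%). OASL alone was called lower (2.00% over all genes), but not after removal of the GC trend. It was at 26.4 and 29.2 CPM against 53.4 to 65.3 CPM. Nuclear genes of oxidative phosphorylation lay below in 23 of 39 (28.5% of all genes) with a median of -0.26, and none reached 2-fold. The 13 genes of the mitochondrial genome are listed at 0 in every library.

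**Figure D4:**
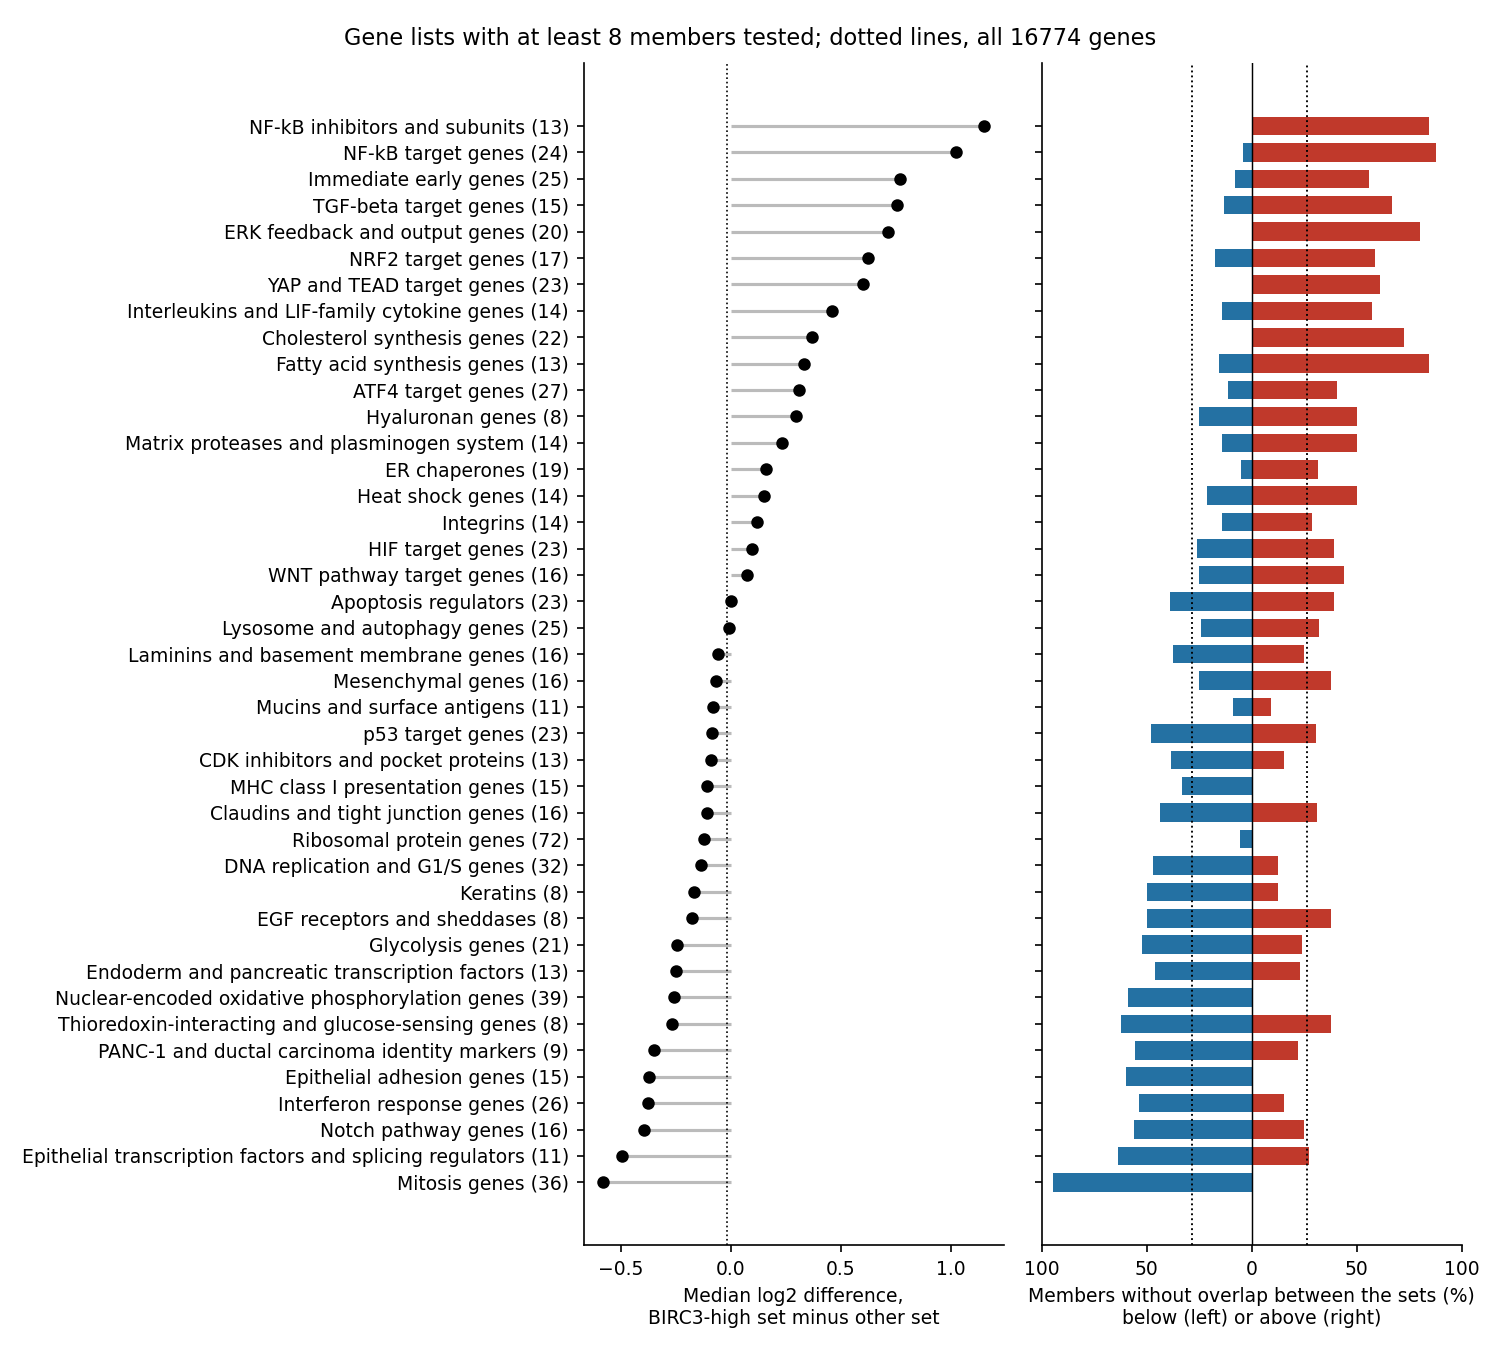
Left, median log2 difference of each gene list with at least 8 members tested (x axis; number tested in brackets); right, percent of its members lying wholly above (red) or below (blue) the other set. Dotted lines give all 16774 genes: a median of -0.02, 26.3% above and 28.5% below. NF-kB inhibitors and subunits stand at 1.15 and mitosis genes at -0.58.

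Each list was chosen with earlier results of these data known, so its count describes it and supports nothing. Apoptosis regulators had a median of 0.00, with 9 of 23 above and 9 below without overlap, against 26.3% and 28.5% of all genes. Of the 23, 5 were called higher (2.56% over all genes), among them BIRC3, BCL2A1, BIRC2 and MCL1, and after removal of a trend with GC content BIRC2 and MCL1 were no longer called. Ribosomal protein genes had no call among 72 and a median of -0.12. Of 14 integrin genes, ITGB8 and ITGA2 were called higher (2.56% over all genes). ITGB4 was called lower (2.00% over all genes), but not after removal of the GC trend.

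The genes were called over all 5 libraries, so a split by siRNA of the same libraries fixes their direction and describes only the size under each siRNA. Of the 430 genes called higher, 352 were at least 2-fold higher in control libraries alone, 375 in RBM3 siRNA libraries alone, and 297 in both. Of the 336 called lower the numbers were 275, 290 and 230. The median differences were 1.30 in control libraries and 1.39 in siRNA libraries for the first, and -1.20 and -1.25 for the second. Within the BIRC3-high pair, which has 1 library of each siRNA, 2 of the 430 and 0 of the 336 were 2-fold apart.

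RBM3 itself, the target of the siRNA, was low in the siRNA library of each set. It was at 567 CPM in control replicate 1 and 195 CPM in siRNA replicate 2, which is 34.3% of control. In the other set the control libraries were at 425 and 436 CPM and the siRNA library at 96.4 CPM, which is 22.4%. With 11 libraries, siRNA replicate 3 being left out, the edgeR quasi-likelihood test of RBM3 siRNA against control in PANC-1 called 0 of 18422 genes (0.00%). At an unadjusted p under 0.05 it gave 198 of the 18422 genes, a smaller share than that limit alone would let through without any effect. DESeq2 called 1 gene and limma-voom called 0. For RBM3 the edgeR estimate was -1.72 on the log2 scale (SE 0.30, adjusted p = 1), and both siRNA libraries lay below all 3 control libraries. With a term for the sets, which were themselves taken from the values, edgeR called RBM3 alone (0.00543%). The edgeR estimate was then -1.91 on the log2 scale (SE 0.24, adjusted p = 0.0466). The siRNA comparison and the sets share all 5 libraries, so neither is independent of the other.

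PANC-1 siRNA replicate 3 enters neither set, and it held transcripts that are abundant in MIA PaCa-2 and near absent from the other PANC-1 libraries. COL1A2 was at 440 CPM there against 1.67 CPM or less in the other PANC-1 libraries. The 108 genes near silent in MIA PaCa-2 and not apart between the sets were at a median of 0.534 of their level in the other PANC-1 libraries (quartiles 0.449 and 0.637). EREG at 121 CPM, AREG at 15.6 CPM and CXCL8 at 57.3 CPM were above all 5 libraries, and MIA PaCa-2 had 214 to 398, 34.1 to 86.1 and 58.0 to 111 CPM. Among other genes near silent in MIA PaCa-2, 39 of 42 called higher and 18 of 20 called lower were nearer to the other set once values were scaled by 0.534. Without that scaling it was 42 of 42 and 4 of 20, so the result for genes called lower rests on the scaling. The cause was not tested. BCL2A1, at 0.0376 CPM or less in MIA PaCa-2, was at 2.72 CPM there, below the 7.97 CPM of the lowest of the 5 libraries.

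In MIA PaCa-2, 211 of the genes called higher and 209 of those called lower were at 5 CPM or more. Of these, 74 (35.1%) and 77 (36.8%) differed at least 2-fold between the lowest and the highest MIA PaCa-2 library, against 14.7% of 10700 genes tested. Around the gene means, the library medians ran from -0.15 to 0.16 for genes called higher and from -0.25 to 0.18 for genes called lower.

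Genes called apart lay on every numbered chromosome and on X. Among numbered chromosomes and X the percent called higher ran from 1.03 on chromosome 22 to 4.43 on chromosome 21, and the percent called lower from 0.98 on chromosome 2 to 3.73 on chromosome 19. Of 16306 pairs of neighbouring genes tested, 34 were called higher together and 23 lower together, from 422 and 329 called genes with a known place. The number of pairs to be expected was not worked out, so these counts do not show whether called genes lie evenly or in groups. Among these pairs were EREG with AREG, CXCL1 with CXCL2, BIRC3 with BIRC2, CDH3 with CDH1 and CLDN3 with CLDN4. Others joined a gene with its antisense transcript, such as ITGA2 with ITGA2-AS1 and BCL10 with BCL10-AS1. The strand setting of the counts is not known, so such pairs may share reads. Protein-coding genes were called higher in 2.93% and lower in 2.38%, and long non-coding RNAs in 2.28% and 0.867%.

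Base composition went with the share of genes called lower, and transcript length with the share called higher. Transcripts of genes called lower had a median GC content of 56.35%, against 48.56% for those called higher and 48.69% for all. With genes cut into 5 equal bins by GC, the percent called lower went from 0.765 in the bin with the least GC to 4.38 in the bin with the most. The percent called higher was 2.63 and 2.17 in these bins, and the median of all genes 0.08 and -0.14. GC content weighted by counts was 49.63% and 49.05% in the BIRC3-high set and 49.73% to 50.11% in the other set. After removing the trend with GC in each library, 402 of the 430 and 272 of the 336 genes were still called. With 5 bins by transcript length, the percent called higher went from 1.1 in the shortest bin to 3.52 in the longest. The percent called lower was 0.765 and 2.11 in these bins, and the median of all genes -0.085 and 0.074. Length weighted by counts was 4182 and 4512 bases in the BIRC3-high set and 4134 to 4259 bases in the other set. After removing the trend with length, 402 and 304 genes were still called.

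Promoters of 300 bases around the start (250 before, 50 after) were found for 312 genes called higher, 248 called lower and 11154 tested. The AP-1 motif TGANTCA was in 12.2% of the first, 5.65% of the second and 4.55% of all tested (7.76% of all 27305 promoters). The NF-kB motif was in 4.49%, 0.806% and 2.17% (1.92% of all promoters). The TEAD motif GGAATG was in 12.8%, 10.1% and 10.8% (14% of all promoters), about the same in each. Of 37 NF-kB genes tested in the pair of lists, 32 had a promoter, 12 held an NF-kB match and 9 of the 12 were called higher. Of the 20 without a match 9 were called higher too, and 21 of all 37, beside 2.56% of all genes. Those with a match were BIRC3, TNFAIP3, NFKBIA, NFKB1, NFKBIZ, CXCL1, CXCL2, CCL20 and TNFRSF9, and REL, IL32 and LTB held a match without being called. A match is a run of letters and no evidence that a factor binds. A missing match is no evidence that a site is absent, because only this pattern was searched. CXCL8, for example, is counted among the genes without an NF-kB match.

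**Figure D5:**
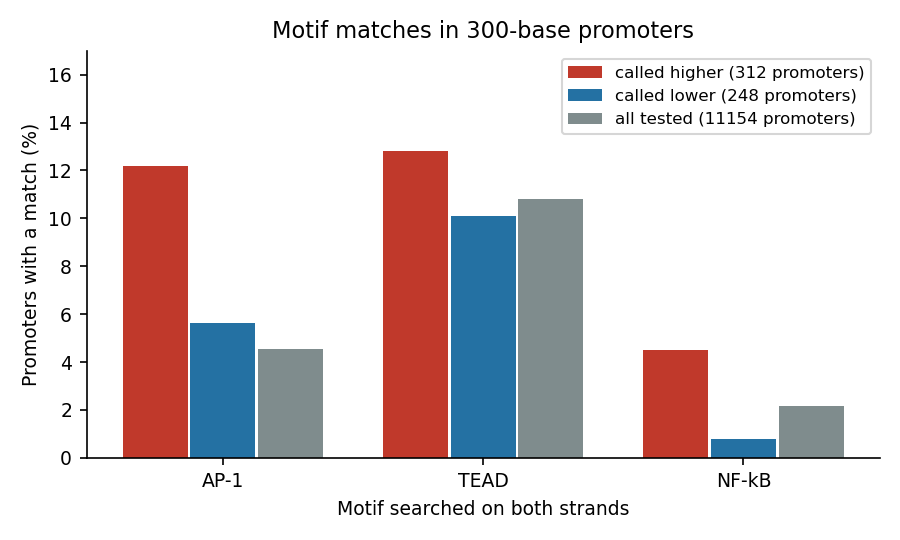
Percent of promoters with at least 1 match to each motif (y axis, from 0) for genes called higher (red, 312), called lower (blue, 248) and all tested (grey, 11154). AP-1 matches were in 12.2% of promoters of genes called higher against 4.55% of all tested, and TEAD matches were within 12.8% and 10.1% in the 3 groups.

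The limit of 2-fold falls within a continuous range. JUN and DIS3, at a log2 difference of 1.001, were just inside it. DOCK5, at 0.999, with 48.0 and 67.9 CPM against 27.2 to 29.4 CPM, was just outside. On the other side CGNL1 and TEDC1 were just inside and ZNF846, at 4.06 and 3.13 CPM against 7.41 to 8.60 CPM, just outside. With a prior of 0.25 CPM in place of 1 CPM, 750 and 606 genes were called, and with edgeR's fitted fold changes 886 and 866.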

How the data were processed

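RNA-seq of PANC-1 and MIA PaCa-2 was used as the raw read counts per Ensembl gene deposited by the authors, with no normalisation. The submitters' processing notes list STAR 2.5.2a, Picard, featureCounts, Subread and hg19/GRCh37. Annotation release, strand setting and treatment of duplicates were not given in the sources used here, so overlapping and antisense genes cannot be told apart. All 63677 rows named a gene. RefSeq promoters are of GRCh38, another build, and served for the sequences and the motif search. A GENCODE annotation, also of GRCh38, gave gene type and order. GC content and length were those of the longest GENCODE transcript of each gene.

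Counts were scaled by TMM in edgeR 4.0.16 (R 4.3.3) and filtered by filterByExpr (minimum count 10) over the 5 libraries, leaving 16774 genes. The sets were compared by the difference of mean log2(CPM + 1), without a test. The two-sided edgeR quasi-likelihood F-test for siRNA (Benjamini-Hochberg at 0.05, 7 residual degrees of freedom) used 11 libraries in 4 group means, and the SE was derived from F. A count of 0 allows up to 3 counts, or 0.0909 to 0.208 CPM in these 5 libraries, for counting error only. Pairs of the 5 libraries differed by a chi-square per degree of freedom of 11 to 102.6, so none was a copy. The calculations were tested on simulated data.

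Named were the 6 genes of the rule, RBM3 and PRR11, the 12 genes per direction with the widest gap at 10 CPM or more in the higher set, and in 48 lists the 4 members with the largest difference. Further members were named after their values were seen. Members, lists and sets were chosen with earlier results of these data known. Alternatives were other scalings, priors, filters and folds, DESeq2 1.42.0, limma-voom (limma 3.58.1), set and replicate terms and the removal of each library. Corrections for GC and length, the crossed block and 2 fits of fewer libraries were added after seeing the data. Results of some genes are not reported here.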

Additional observations from a re-analysis of the deposited data

How the results depend on the processing

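The sets were chosen from these libraries and have 2 and 3 members, so their counts depend on the limit used. A prior of 0.25 CPM gave 750 genes higher and 606 lower, a prior of 4 CPM 252 and 128, a fold of 1.5 gave 1475 and 1364, a fold of 4 gave 45 and 8, and edgeR's fitted fold changes 886 and 866. Leaving out each library in turn gave 386 to 561 genes higher and 325 to 396 lower. Library size alone gave 359 and 406, so the share of higher among called genes went from 56.1% to 46.9%. No gene called in one direction was called in the other under any of these or the remaining scalings and filters, while 14 of 47 list medians changed sign under some setting. For siRNA, DESeq2, no filter, the set term, and the set term with the 5 PANC-1 libraries alone each gave 1 gene, and the removal of each library 0 to 0. On 16856 genes, the replicate block on PANC-1 replicates 1 and 2 gave 0, with 10 at an unadjusted p under 0.05. Without the block it was 0 and 42. Both shares are smaller than that limit alone would let through without any effect. Deviations from the mean of each siRNA group had r of -0.80 and -0.47 over genes between same-numbered libraries. The sets were chosen from these values, and with 2 siRNA libraries each deviates as the mirror of the other. These r therefore cannot show whether replicates were paired. A crossed replicate block, added after seeing the data, gave 25 genes. It joins control replicate 1 with siRNA replicate 2, and control replicate 2 with siRNA replicate 1, as the sets do. It is thus the set term on fewer libraries and no independent count. The TMEM86A log2 fold change was 0.24 in all 12 libraries against -5.23 without siRNA replicate 3. TMEM86A was at 0.256, 0.139 and 0.138 CPM in control replicates 1, 2 and 4 and at 0 in siRNA replicates 1 and 2. The value of -5.23 thus rests on very few counts, and the cause of the change was not tested. Genes under about 0.2 CPM are below the depth of these libraries.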
